A study of Mus musculus with 6 samples.

Results

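The 10 genes described here carry out the synthesis, recycling, use and disposal of nicotinamide adenine dinucleotide (NAD) and its base nicotinamide. They were chosen by gene symbol, with earlier results of these data known. All 10 were found among the 32597 genes of the deposited table. Every member also belonged to the 11741 genes that the authors tested and that reached 1 FPKM at either age. FPKM is the number of fragments counted on a gene, scaled to the length of its transcript and to the mapped fragments of the library. The study profiled liver RNA of wild type male C57BL/6 mice, an inbred strain, at 6 months of age (adult) and at about 1 month (young). The young age is given in 3 ways by the labels, as 3 weeks in the titles, 3 to 4 weeks in the age field and 1 month in the series title. Each age had 3 libraries, and each library pooled RNA of 3 mice, so 9 mice stand behind each age. The deposited table holds a single FPKM value per gene and age, with no value per library, so no standard deviation can be given and the fragments behind each value are unknown. The authors' q-value, their p-value adjusted for multiple testing, is the only measure of error here; how their test used the 3 pools per age is not stated.

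NAD carries electrons in metabolism and is also consumed as a substrate by sirtuins, poly(ADP-ribose) polymerases (PARPs) and NAD glycohydrolases, which release nicotinamide. Cells rebuild NAD from that nicotinamide by salvage, and the liver also makes NAD from tryptophan and from nicotinic acid. Nicotinamide that is not reused is methylated in the liver, oxidized by aldehyde oxidase and excreted.

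The members called with age, Nnmt and Aox1, belong to nicotinamide disposal, as does Aox3, which was not called. No contrast between groups of members was tested. The threshold for a call was a q-value below 0.05 from the authors, and its direction was read from the FPKM. Nnmt and Aox1 were called higher in adult liver, while none of the 10 members was called lower. Over all genes compared, 3.99% were called higher and 3.48% lower. At an unadjusted p-value under 0.05 in the authors' deposited table, 4 members were higher (Nnmt, Aox1, Aox3 and Nampt) and 0 were lower, against 8.51% and 7.55% of all genes compared. The median log2 fold of the members was 0.28, with a range of -0.28 to 1.34, and the median over all genes compared was 0.0033. Log2 folds here are log2((adult FPKM + 1)/(young FPKM + 1)), which makes changes of weakly expressed genes look smaller. In bulk RNA such as this, fewer cells of a type cannot be told apart from less RNA per cell.

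**Figure D1:**
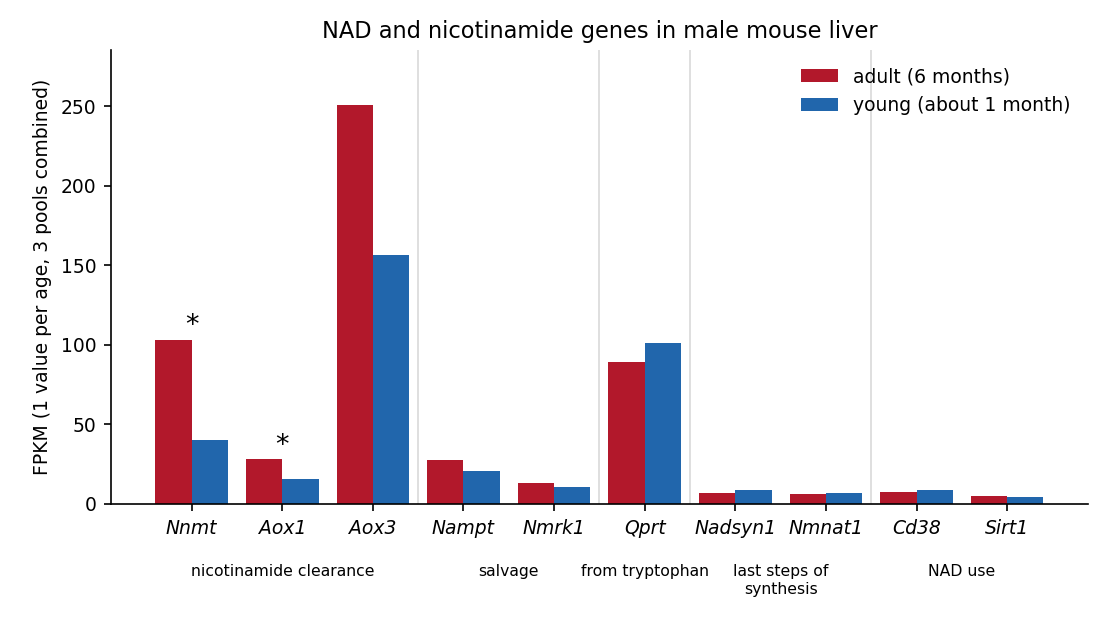
FPKM of the 10 members, grouped by role, in adult liver (red, left bar) and young liver (blue, right bar), 1 value per age with no error bar because the table gives none. Stars mark q under 0.05 in the authors' test. Nnmt stands at 103 FPKM in adult and 40.1 in young liver, and Nnmt and Aox1 carry the stars.

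The promoter sequences of 4 members are shown first, because Aox1 was called higher in adult liver, Aox3 is its neighbour in the same gene row and was not called, and the other two bear on neighbouring genes or on the clock genes described further on. They come from RefSeq on build GRCm38.p6 and run 5′ to 3′ on the gene's own strand, up to the base before the annotated start. For Aox1 the run ends where the GENCODE M21 annotation begins its first exon. Capitals mark CG dinucleotides in the first 3 sequences and the E-box CACGTG in the last. An entry was found for 9 members; the other is Nnmt. Aox1 lies on chr1:58029719-58029930 (plus strand), Aox3 on chr1:58112886-58113135 (plus strand), Nadsyn1 on chr7:143822853-143823102 (minus strand) and Sirt1 on chr10:63339036-63339285 (minus strand). The RefSeq start of Sirt1 lies within the span that the deposited table gives the gene.
Aox1: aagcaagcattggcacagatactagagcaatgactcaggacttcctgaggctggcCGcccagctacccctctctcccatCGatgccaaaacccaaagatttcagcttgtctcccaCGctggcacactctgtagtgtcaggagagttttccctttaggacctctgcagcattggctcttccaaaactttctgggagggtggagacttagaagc
Aox3: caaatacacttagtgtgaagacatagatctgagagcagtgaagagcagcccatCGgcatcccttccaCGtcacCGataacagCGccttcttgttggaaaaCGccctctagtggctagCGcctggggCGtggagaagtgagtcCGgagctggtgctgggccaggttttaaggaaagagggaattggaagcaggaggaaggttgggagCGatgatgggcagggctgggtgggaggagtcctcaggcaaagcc
Nadsyn1: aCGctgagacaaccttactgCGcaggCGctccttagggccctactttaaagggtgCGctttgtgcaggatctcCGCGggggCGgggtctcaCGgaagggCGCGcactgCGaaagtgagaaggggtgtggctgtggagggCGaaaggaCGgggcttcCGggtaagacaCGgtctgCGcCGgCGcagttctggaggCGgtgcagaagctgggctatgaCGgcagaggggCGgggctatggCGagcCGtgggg
Sirt1: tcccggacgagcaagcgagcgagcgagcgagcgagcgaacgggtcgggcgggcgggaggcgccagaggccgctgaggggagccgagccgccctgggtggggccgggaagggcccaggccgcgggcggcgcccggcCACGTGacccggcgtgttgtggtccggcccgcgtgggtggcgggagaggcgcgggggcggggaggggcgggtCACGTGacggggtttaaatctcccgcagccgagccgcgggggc

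The members differed in the number of CG dinucleotides in the 250 bases before their RefSeq starts. Nampt, Nmrk1, Nmnat1, Nadsyn1 and Sirt1 held 21 to 39, whereas Aox3 held 9, Qprt 6, Aox1 5 and Cd38 1. The median over 32851 such windows of all genes was 6. Aox3 had more than 59.7% of windows and Aox1 more than 44.4%, so both lay near the middle. The Aox1 sequence printed above leaves out the 38 exonic bases of its window, so it does not show all 5 of its CG dinucleotides. Sirt1, with 39, had more than 98.4% of windows, and Cd38, with 1, had more than 7.87%. The GENCODE M21 annotation places all 250 bases of the Cd38 window and 197 of the Qprt window in exons of those genes, so these counts are not plainly those of a promoter. In the other windows 0 to 66 bases were exonic. This is a description of 9 genes, with no test.

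Nnmt showed the largest change of the 10. It encodes nicotinamide N-methyltransferase, which uses S-adenosylmethionine to turn nicotinamide into 1-methylnicotinamide and so removes it from salvage. Its level was 103 FPKM in adult and 40.1 FPKM in young liver, a 2.58-fold difference. The log2 fold was 1.34, at q = 0.00189 per the authors' deposited table, and 240 of the genes compared, or 2.04%, had a larger log2 fold. Among the members Nnmt was the second in level in adult liver and the third in young liver, where Qprt stood above it. Its p-value of 5e-05 in the authors' deposited table is the smallest they give and was shared by 554 genes. The gene lies on chromosome 9 at 48591877 to 48605153 on the minus strand of GRCm38, and the table lists no other gene within 5000 bases of it.

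The related enzyme Inmt, indolethylamine N-methyltransferase, changed the other way. It fell to 470 FPKM in adult liver, against 883 FPKM in young liver, a log2 fold of -0.91, at q = 0.00189 per the authors' deposited table. Inmt nevertheless remained the more abundant of the pair: Nnmt stood at 0.22 of the Inmt level in adult and at 0.0454 of it in young liver. No run of 50 bases in the longest coding transcript of Nnmt or of Inmt occurs in a transcript of another gene.

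The aldehyde oxidases Aox1 and Aox3, molybdenum enzymes that oxidize N-methylnicotinamide to pyridones as well as many drugs and aldehydes, differed in their calls. Aox1 rose to 28.1 FPKM in adult liver, against 15.7 FPKM in young liver. Its log2 fold was 0.80, at q = 0.00189 per the authors' deposited table. Aox3, the most abundant of the 10 members at both ages, stood at 251 FPKM in adult and 156 FPKM in young liver, a log2 fold of 0.68, at q = 0.175 per the authors' deposited table. Aox3 was therefore not called, although its fold was close to that of Aox1. The test statistic in the authors' deposited table was 3.12 for Aox1 and 0.958 for Aox3. Of all 569 genes with a log2 fold at least as high as that of Aox3, much larger folds included, 300, or 52.7%, were called. Among the 228 of them with a mean of at least 5 FPKM, 170, or 74.6%, were called. Whether Aox1 and Aox3 differ in their change was not tested.

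The ratio of Aox3 to Aox1 was 8.92 in adult and 9.94 in young liver, so the order of the pair was kept. Their summed level was 279 FPKM in adult and 172 FPKM in young liver, and Aox3 made up most of it. On chromosome 1 the mouse has 4 aldehyde oxidase genes in a row on the plus strand within 350 kb. Aox1 spans 58029931 to 58106413, and Aox3 starts 6.72 kb beyond its end, spanning 58113130 to 58200698. The next genes of the row, Aox4 and Aox2, were practically silent in liver: Aox4 was at 0.0015 FPKM in adult liver and listed at 0 in young liver, and Aox2 was at 0.0052 FPKM in adult and 0.0093 FPKM in young liver. The authors did not test either of them. No run of 50 bases in the longest coding transcript of Aox1 or Aox3 was shared with a transcript of any other gene.

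**Figure D2:**
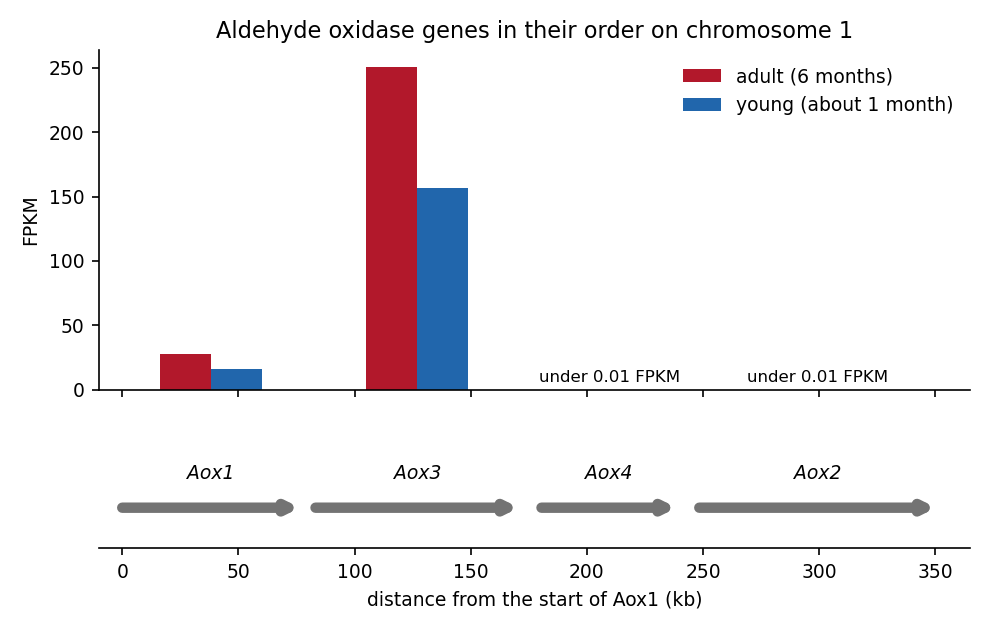
FPKM of the aldehyde oxidase genes in adult (red, left) and young (blue, right) liver, above a map of their spans drawn to scale as distance in kb from the start of Aox1; arrows point in the direction of transcription. Aox3 reached 251 FPKM in adult and 156 in young liver, Aox1 28.1 and 15.7, and Aox4 and Aox2 stayed under 0.01 FPKM.

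Among the other molybdenum enzymes and the genes of their cofactor no call was made. Of 9 genes listed, 7 were compared (Aox2 and Aox4 were not) and 0 were called in either direction, by q or by an unadjusted p-value under 0.05 (authors' deposited table). Their median log2 fold was 0.02. Mocs2, a subunit of molybdopterin synthase, stood at 126 FPKM in adult and 140 FPKM in young liver, and sulfite oxidase, Suox, at 51.3 FPKM in adult and 60.1 FPKM in young liver.

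Genes that supply the methyl donor were listed too. Of 9 genes of the methyl donor cycle, 1 was called higher, 0 lower, and the median log2 fold was -0.16. The one called was Mat2a, which makes S-adenosylmethionine in most tissues outside the liver and at a low level within it. It rose to 42.2 FPKM in adult liver, against 28.6 FPKM in young liver, at q = 0.0112 per the authors' deposited table. Mat1a, the liver form, was named after its values were seen; it stood at 743 FPKM in adult and 925 FPKM in young liver, at q = 0.598 per the authors' deposited table. Among 5 other methyltransferases of small molecules, Inmt fell and the histamine methyltransferase Hnmt rose to 38.1 FPKM in adult liver, against 24.5 FPKM in young liver, at q = 0.00189 per the authors' deposited table. These 5 had a median log2 fold of -0.15.

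Nampt and Nmrk1, which rebuild NAD from nicotinamide and from its riboside, were not called. Nampt encodes nicotinamide phosphoribosyltransferase, the rate-limiting enzyme of salvage. Its level was 27.5 FPKM in adult and 20.5 FPKM in young liver, a log2 fold of 0.41. The authors' deposited table gives it p = 0.0064 and q = 0.0948, so Nampt lay between the thresholds of 0.05 and 0.1. The kinase Nmrk1, which phosphorylates nicotinamide riboside, stood at 13.3 FPKM in adult and 10.7 FPKM in young liver, a log2 fold of 0.29, at q = 0.524 per the authors' deposited table. Its paralog Nmrk2, known from muscle, was near 0, at 0.047 FPKM in adult and 0.023 FPKM in young liver. Nampt lies on chromosome 12 at 32820335 to 32853369 and Nmrk1 on chromosome 19 at 18631950 to 18652194.

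The level of Nnmt relative to Nampt, the enzymes that compete for nicotinamide, was 3.75 in adult and 1.96 in young liver. These ratios of FPKM come from 1 value per age and carry no error. The 3 disposal genes, Nnmt, Aox1 and Aox3, summed to 382 FPKM in adult and 212 FPKM in young liver. Most of that sum at both ages was Aox3, which was not called, at 251 FPKM in adult and 156 FPKM in young liver. The 5 synthesis genes, Nampt, Nmrk1, Qprt, Nmnat1 and Nadsyn1, summed to 144 FPKM in adult and 148 FPKM in young liver. Qprt made up most of this second sum, at 89.4 FPKM in adult and 101 FPKM in young liver. The difference between these sums was not tested.

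**Figure D3:**
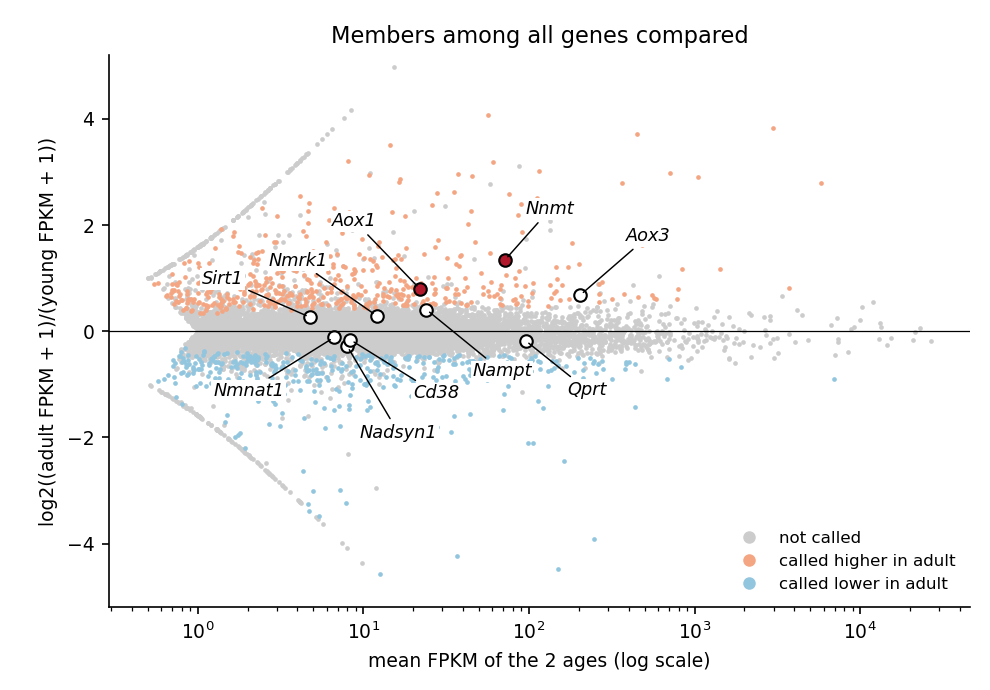
Log2 fold (adult over young, with 1 added to each FPKM) against mean FPKM on a log scale for the 11741 genes compared, with the members as large circles, filled where called. Nnmt at 1.34 and Aox1 at 0.80 lie among the genes called higher in adult liver (orange), and the other 8 members, unfilled, run from -0.28 to 0.68; the thin diagonal arms are genes at or near 0 FPKM at an age.

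Qprt, the enzyme that brings the tryptophan branch into NAD synthesis by converting quinolinate, was the third most abundant member in adult liver and the second in young liver. It stood at 89.4 FPKM in adult and 101 FPKM in young liver, a log2 fold of -0.18, at q = 0.761 per the authors' deposited table. It lies on chromosome 7 at 127107114 to 127122226. Qprt and Nnmt exchanged ranks between the ages, with Nnmt at 1.16 of the Qprt level in adult and 0.396 of it in young liver. Aox1 and Nampt did so too, with ratios of Aox1 to Nampt of 1.02 in adult and 0.768 in young liver. Without values per library it cannot be judged whether neighbours in this order differ beyond their spread.

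Of 11 genes listed for tryptophan breakdown ahead of Qprt, 10 were compared, and 1 was called higher and 2 lower, with a median log2 fold of -0.09. Acmsd, the decarboxylase that draws the pathway away from quinolinate, fell to 10.6 FPKM in adult liver, against 15.8 FPKM in young liver, at q = 0.0202 per the authors' deposited table. Of the 3 aminotransferases listed that can divert kynurenine to kynurenic acid, Kyat1 and Aadat were called in opposite directions and Kyat3 was not called. Kyat1, listed in the table as Ccbl1, fell to 53.1 FPKM in adult liver, against 83.9 FPKM in young liver, at q = 0.0035 per the authors' deposited table. Aadat rose to 98.1 FPKM in adult liver, against 68.1 FPKM in young liver, at q = 0.0174 per the authors' deposited table. Kyat3, listed as Ccbl2 and named after its values were seen, had a log2 fold of -0.11, at q = 0.968 per the authors' deposited table. The dioxygenase Tdo2, which opens the pathway in liver and was named after its values were seen, stood at 1433 FPKM in adult and 1188 FPKM in young liver and was not called.

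Nmnat1 and Nadsyn1, which carry out the last steps of NAD synthesis, were not called, and their levels lay above those of 46.2% to 55.3% of all genes compared. Nmnat1, the nuclear adenylyltransferase that joins the mononucleotide to AMP, stood at 6.33 FPKM in adult and 6.96 FPKM in young liver, a log2 fold of -0.12, at q = 0.944 per the authors' deposited table. Its mitochondrial paralog Nmnat3 was at 2.28 FPKM in adult and 2.31 FPKM in young liver, and Nmnat2, known from neurons, at 0.046 FPKM in adult and 0.035 FPKM in young liver. Nadsyn1, the synthetase that amidates the acid form of NAD made from tryptophan or nicotinic acid, stood at 7.12 FPKM in adult and 8.86 FPKM in young liver. Its log2 fold was -0.28, at q = 0.562 per the authors' deposited table. Nmnat1 lies on chromosome 4 at 149467572 to 149485202 and Nadsyn1 on chromosome 7 at 143795584 to 143822849.

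Nadsyn1, Nmnat1 and Nmrk1 each had a gene on the other strand starting next to their own start, and these neighbours are named after their values were seen. The Nadsyn1 promoter printed above lies inside the 295-base gap to Dhcr7, which encodes the last enzyme of cholesterol synthesis. Dhcr7 fell to 46.9 FPKM in adult liver, against 78.1 FPKM in young liver, a log2 fold of -0.72, at q = 0.00629 per the authors' deposited table. Nadsyn1 itself was not called, and the difference between the pair was not tested. Lzic, 26 bases from Nmnat1, was at 4.63 FPKM in adult and 4.86 FPKM in young liver, and Ostf1, 160 bases from Nmrk1, at 20.5 FPKM in adult and 18.7 FPKM in young liver, neither of them called.

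Among 9 other genes listed with NAD and NADP synthesis, 6 were compared, and 1 was called lower and 0 higher, with a median log2 fold of -0.11. The gene called was Nt5e, the ectonucleotidase CD73, which removes phosphate from AMP outside the cell and does not itself make NAD. It fell to 2.69 FPKM in adult liver, against 11.7 FPKM in young liver, a log2 fold of -1.79, at q = 0.00189 per the authors' deposited table. None of 6 compared genes of NAD transport and repair was called, of 7 listed, and their median log2 fold was -0.0029. The NADH pyrophosphatase Nudt12 was at 47.2 FPKM in adult and 35.9 FPKM in young liver, and the transhydrogenase Nnt at 34.9 FPKM in adult and 42.6 FPKM in young liver. Their p-values in the authors' deposited table were 0.0217 for Nudt12, the single gene of this list under 0.05, and 0.0638 for Nnt.

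The NAD-consuming members Cd38 and Sirt1 were among the lower in level and were not called. Cd38, a membrane NAD glycohydrolase known as a major consumer of NAD, stood at 7.84 FPKM in adult and 8.90 FPKM in young liver. Its log2 fold was -0.16, at q = 0.818 per the authors' deposited table. The paralog Bst1, on the same chromosome, was at 0.649 FPKM in adult and 0.7498 FPKM in young liver, and Sarm1, an NAD hydrolase known from neurons, was at 0.0556 FPKM in adult and 0.0510 FPKM in young liver; neither reached 1 FPKM. Cd38 lies on chromosome 5 at 43868809 to 43912375.

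Cd38 is made by several cells of the liver, and markers of some of these changed. Among 7 Kupffer cell markers, 2 were called higher (Marco and Cd5l) and 0 lower. By level alone, 4 were higher and 3 lower in adult liver. Clec4f, not called, stood at 57.7 FPKM in adult and 79.6 FPKM in young liver. The list sum was 304 FPKM in adult and 267 FPKM in young liver. Cd5l alone stood at 96.7 FPKM in adult and 63.9 FPKM in young liver. Of 6 sinusoidal endothelial markers, 0 rose and 2 fell (Lyve1 and Oit3), with sums of 63.3 FPKM in adult and 78.4 FPKM in young liver. Col3a1 was the single gene called, as lower, of 6 stellate cell and fibroblast markers compared, with a list sum of 166 FPKM in adult and 184 FPKM in young liver. Ighm was the single gene called, as higher, of 3 B and plasma cell markers compared, with a list sum of 25.2 FPKM in adult and 15.4 FPKM in young liver. None of these 4 lists held a gene at 0 at both ages. Their part in the Cd38 value was not tested.

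Sirt1, the nuclear NAD-dependent deacetylase, was the least abundant member at both ages, at 5.29 FPKM in adult and 4.24 FPKM in young liver. Its log2 fold was 0.26, at q = 0.587 per the authors' deposited table. It lies on chromosome 10 at 63319005 to 63381704. Of 6 other sirtuins, 5 were compared and 0 were called, by q or by an unadjusted p-value under 0.05 (authors' deposited table), with a median log2 fold of -0.07. Sirt3, the mitochondrial deacetylase, was the most abundant of them at 55.3 FPKM in adult and 47.1 FPKM in young liver, and the cytoplasmic Sirt2 followed at 15.99 FPKM in adult and 16.8 FPKM in young liver. Of 10 genes whose products act with SIRT1, 1 was called lower and 0 higher, with a median of -0.06. The coactivator Ppargc1a, a SIRT1 substrate, fell to 1.48 FPKM in adult liver, against 2.48 FPKM in young liver, at q = 0.00189 per the authors' deposited table.

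The PARP family, the other large group of NAD consumers, held 14 compared genes of 15, and 0 were called by the q-value. At an unadjusted p-value under 0.05 in the authors' deposited table, 1 was higher and 3 were lower. The median log2 fold was 0.03, with a range of -0.44 to 0.59. Parp9 had the highest level at both ages, 35.0 FPKM in adult and 34.5 FPKM in young liver. Tnks2 had the next highest mean of both ages, with 17.3 FPKM in adult and 15.0 FPKM in young liver, although in young liver Parp12 stood above it.

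**Figure D4:**
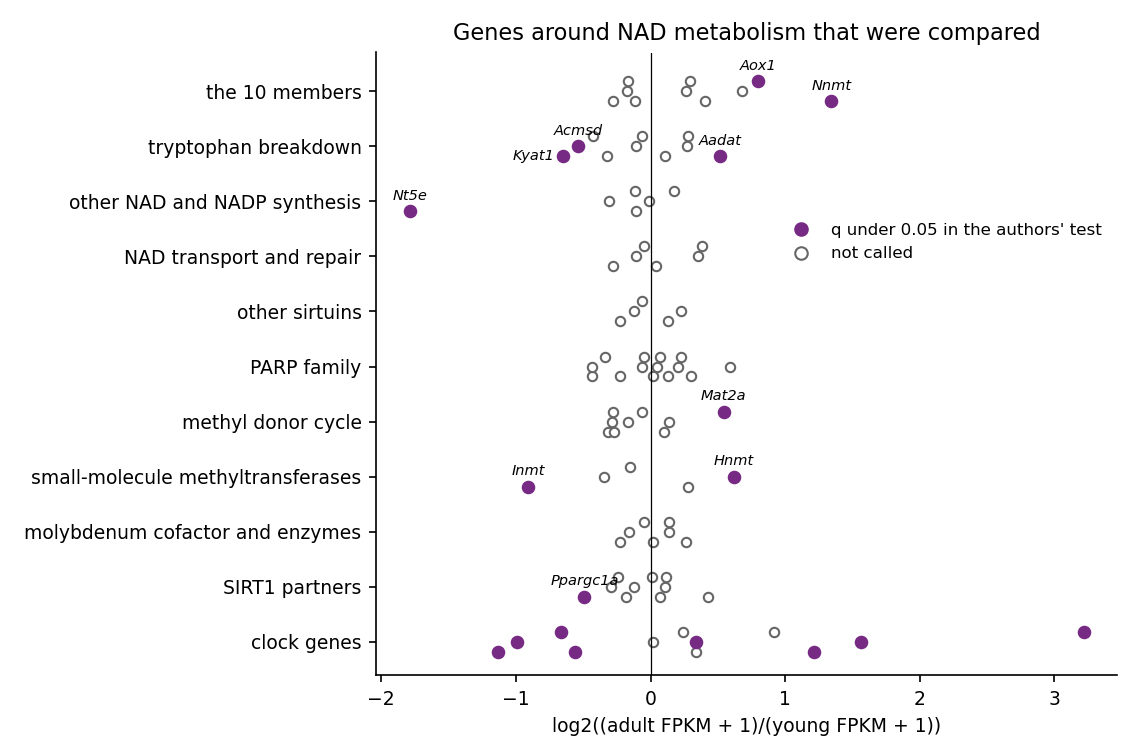
Log2 fold (adult over young) of each compared gene, 1 row per list; filled circles were called by the authors' q-value under 0.05, and called genes are named except in the clock row. Of the 10 members only Nnmt and Aox1 are filled, the sirtuin, PARP, transport and molybdenum rows hold no filled circle, and the clock row is the widest, reaching 3.22.

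Nampt and Sirt1 are tied to the circadian clock in mice, where CLOCK and BMAL1 drive Nampt through E-boxes and SIRT1 acts back on clock proteins. Clock genes were at different levels at these ages. Of 12, 4 were called higher and 4 lower, with a median log2 fold of 0.29. Of those called, Dbp and Per2 reached 1 FPKM in adult liver alone, and Npas2 in young liver alone. Dbp stood at 15.3 FPKM in adult and 0.756 FPKM in young liver, Nr1d2 at 27.5 FPKM in adult and 8.68 FPKM in young liver, and Nr1d1 at 17.3 FPKM in adult and 6.89 FPKM in young liver, all called higher. Arntl, which encodes BMAL1, fell to 4.11 FPKM in adult liver, against 10.2 FPKM in young liver. The time of day at which the mice were killed is not stated in the sources at hand, and the part of the clock in the Nampt and Sirt1 values was not tested.

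An E-box, CACGTG, was found in the 250 bases before the start of 1 of the 9 members with a sequence, Sirt1. Its promoter holds 2, beginning 115 and 43 bases before the annotated start, and the word reads the same on both strands and contains a CG. Over all 32851 windows, 6.02% held at least 1 and 0.429% held 2 or more. No member's window, that of Nampt included, held the D-box TTANGTAA on either strand, the element bound by DBP, which 2.06% of all windows hold. CCAAT was found 2 times in Aox1, and 1 time each in Aox3, in Nmrk1 and in 1 of the 2 windows of Nmnat1, against 33.8% of all windows, and TATAAA in no member, against 12.4%, both searched on either strand. The absence of these letters says nothing about sites outside the window.

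Hepatocyte genes were checked as the label of the tissue. Apoa1, Ttr, Serpina1a, Apob and Tat lay between 628 and 6800 FPKM in adult and between 673 and 8081 FPKM in young liver, and none was called. Albumin, Alb, was listed at 0 at both ages with the status LOWDATA, so its level is not known from the table. Of the remaining lists of other cells, the T and NK cell markers compared, Nkg7, Trac and Cd3g, were called higher in adult liver. Each reached 1 FPKM in adult liver alone, so the filter could keep them only with that direction. Neutrophil and monocyte markers were called higher in 2 of 5 (Ccr2 and Lyz2), and Ccr2 reached 1 FPKM in adult liver alone. Of the cholangiocyte markers compared, Krt19 and Krt7 were called lower and Spp1 was not called. Krt19 and Krt7 reached 1 FPKM in young liver alone. Over all genes compared, 3.99% were called higher and 3.48% lower. None of 4 dendritic cell markers reached 1 FPKM, so none was compared. The highest were Itgax at 0.934 FPKM in adult and 0.121 FPKM in young liver and Xcr1 at 0.411 FPKM in adult and 0.318 FPKM in young liver. The authors' deposited table gives Itgax q = 0.00189. It gives q = 0.00189 for Cd3d and Cd8a and q = 0.00629 for Cd3e. These T cell markers, also under 1 FPKM, were higher in adult liver. The sums of the T and NK list were 15.0 FPKM in adult and 3.09 FPKM in young liver.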

How the data were processed

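Liver RNA was sequenced in 6 libraries, 3 per age, each a pool of 3 mice. Per the submitters' processing notes, the build was GRCm38 and the tools included Cufflinks 2.2.1, TopHat2 2.0.11 and Cuffdiff. The annotation release, normalization, dispersion model and strand setting are not stated there or in the labels. The authors deposited 1 FPKM value per gene and age, with the 3 libraries already combined. The deposited table also holds the authors' log2 fold change, test score, p-value and q-value, and their significance mark was set exactly where the q-value was under 0.05. Depth per library is unknown, and no test between libraries could be made.

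Genes were kept where the test status was OK and FPKM reached 1 at either age. All p-values and q-values given are the authors', and the set of genes behind their adjustment is not known here. The members and lists were chosen with earlier results of these data known. The text names all members, their paralogs, the called genes of each list (at most 4, by fold; cell marker lists are mostly given as counts) or, where none was called, the 2 with the highest level; others are marked. Runs of 50 bases were searched in all GENCODE M21 transcripts on both strands, which was chosen after the data were seen, as were the motifs other than the E-box and the CG counts. Among members, at most 6.61% of the runs of the longest coding transcript were shared with other genes (Nmrk1). Protein identity was not analysed here. Calls and adjustment were tested on simulated data. Python 3.11.15 with pandas 2.3.3 was used.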

Additional observations from a re-analysis of the deposited data

How the results depend on the processing

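No paired analysis was possible because the deposited table gives 1 value per age, which also prevented leaving out replicates. The count of members called higher was 2 with a q-value under 0.01 and with a Benjamini-Hochberg adjustment of the authors' p-values over all rows tested. It was 3 with a q-value under 0.1, which adds Nampt. The count called lower was 0 under each of these settings. No minimum on FPKM, or a minimum of 5 FPKM at either age, could not change the counts or the median. Every member reached 5 FPKM at 1 age or both, the lowest being Sirt1 with 5.29 FPKM in adult liver. Pseudocounts of 0.1 and none, centring, a common upper quartile and a common total left the sign of every member's log2 fold as reported. The fold of Nnmt ran from 1.33 to 1.37, of Aox1 from 0.79 to 0.84, of Aox3 from 0.67 to 0.68 and of Nampt from 0.40 to 0.43. The median of the members ran from 0.27 to 0.32. Pooling and the unknown depth limit what the q-values say about single animals. Reads shared with antisense or other overlapping genes cannot be separated. The antisense genes overlapping members were at 0.07 FPKM or less. Gdap10, which overlaps Nampt on the same strand, was at 0.204 FPKM in adult and 0.0988 FPKM in young liver.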
